A study of Homo sapiens with 6 samples.

Results

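The AMP-activated protein kinase (AMPK) subunits and the proteins that switch the kinase on were followed at the RNA level in MiaPaCa-2 cells, an established human pancreatic cancer line, deprived of glucose. The group was set by gene name, with earlier results of these data known: the catalytic alpha subunits PRKAA1 and PRKAA2, the scaffolding beta subunits PRKAB1 and PRKAB2, the nucleotide-binding gamma subunits PRKAG1 and PRKAG2, the upstream kinase STK11 with its partners STRADA and CAB39, and the calcium-dependent upstream kinase CAMKK2. These are 10 of the 60668 genes in the table, and all 10 were among the 21101 genes that averaged at least 1 normalized count and were tested. Low glucose was 2.5 mM for 48 h, and the control cells were kept in 25 mM glucose. Each condition had 3 libraries of total RNA, described as independent biological replicates of this single line. The treatment note is the same for all 6 samples and names low glucose, so the control concentration comes from the design text.

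AMPK is a heterotrimer that senses cellular energy. A fall in ATP with a rise in AMP and ADP is read by the gamma subunit, and the alpha subunit is then phosphorylated on a threonine of its activation loop. The main kinase for that residue is LKB1, encoded by STK11, which works in a complex with the pseudokinase STRAD and the scaffold MO25 (CAB39), and CAMKK2 phosphorylates the same residue when calcium rises. Glucose shortage also activates AMPK on the lysosome surface through aldolase, AXIN and the LAMTOR proteins. Active AMPK restrains lipid and sterol synthesis and promotes autophagy and glucose uptake. These steps act on proteins, whereas the table holds RNA levels, with no measure of phosphorylation or kinase activity.

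The 39 bases that encode the activation loop around the regulated threonine are shown because this is the site at which the upstream kinases meet the alpha subunits. They were read from the canonical Gencode v44 transcripts on hg38, 5′ to 3′ in the coding sense, with the threonine codon in capitals. The codon is residue 183 of the 559-residue PRKAA1 product and residue 172 of the 552-residue PRKAA2 product, and in both genes the stretch lies within coding exon sequence, in exon 5 of 9. The PRKAA1 stretch is chr5:40769445-40769483 on the minus strand and the PRKAA2 stretch is chr1:56693785-56693823 on the plus strand.
PRKAA1: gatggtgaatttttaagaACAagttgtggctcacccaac
PRKAA2: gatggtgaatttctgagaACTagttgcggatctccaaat
The sequences were identical at 31 of 39 bases. Over the full canonical transcripts, the longest exact run shared by a pair of paralogs was 24 bases for alpha, 20 for beta and 12 for gamma, all far shorter than a sequenced read.

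The libraries held 9741183, 10126218 and 10190154 reads on genes in control cells and 10841656, 10595408 and 13733477 in low glucose, and values below are given in that order. The control libraries lay farther apart than the low-glucose libraries. Over 10149 genes averaging at least 100 normalized counts, the SD of the log2 difference between library pairs was 0.20 to 0.33 in controls and 0.14 to 0.15 in low glucose. The control library of 10126218 reads was the highest control for 5 of the 10 genes (PRKAA1, PRKAA2, STK11, CAB39 and CAMKK2) and the lowest for the other 5. For the line's identity, the epithelial keratins KRT8, KRT18 and KRT19 and the mesenchymal filament VIM were abundant. The epithelial markers KRT7 and EPCAM had 2 to 12 and 0 to 1 reads, and the mesenchymal cadherin CDH2 had 0. Of the markers of other cell types, PTPRC (immune) and DCN (fibroblast) had 0 reads in every library, LUM (fibroblast) 0 to 1, PECAM1 (endothelial) 0 to 3 and COL1A1 (fibroblast) 3 to 14. KRT8, KRT18 and KRT19 fell by 1.01, 0.74 and 0.83 and VIM rose by 0.42 on the log2 scale in low glucose (limma, adjusted p = 3.26e-06, 4.29e-05, 7.46e-06 and 0.00819), while KRT7 did not pass (0.85, adjusted p = 0.211). The part of this in the results below was not tested.

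In low glucose the regulatory subunits PRKAB1 and PRKAG1 rose by 30.5% and 27.1%, while the LKB1 gene STK11 and its scaffold CAB39 fell by 15.6% and 23.0%. These 4 of the 10 genes passed an adjusted p of 0.05 in limma, beside 30.9% of all genes tested, a share too close to read as particular to AMPK. By direction, 2 of 10 were higher, beside 14.7% of all genes, and 2 of 10 were lower, beside 16.2%. The libraries of the conditions did not overlap for 6 of the 10 genes, beside 43.9% of all genes. Both count-based tests, edgeR and DESeq2 on recovered reads, also gave 4 calls among the 10. Over all genes they called 6554 of 15322 (edgeR) and 5486 of 17421 (DESeq2). The count was 2 without the control library of 9741183 reads or without any 1 of the 3 low-glucose libraries, PRKAB1 and CAB39 in each case. Calls over all 21101 genes fell as well, from 6528 to 5135 without that control. They were 4298, 4428 and 4546 without the low-glucose library of 10841656, 10595408 or 13733477 reads. The median log2 fold change of the 10 was 0.05, and that of all genes tested was also 0.05, or -0.02 among genes averaging at least 20 normalized counts. In bulk RNA, fewer cells of a type and less RNA per cell cannot be told apart.

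**Figure D1:**
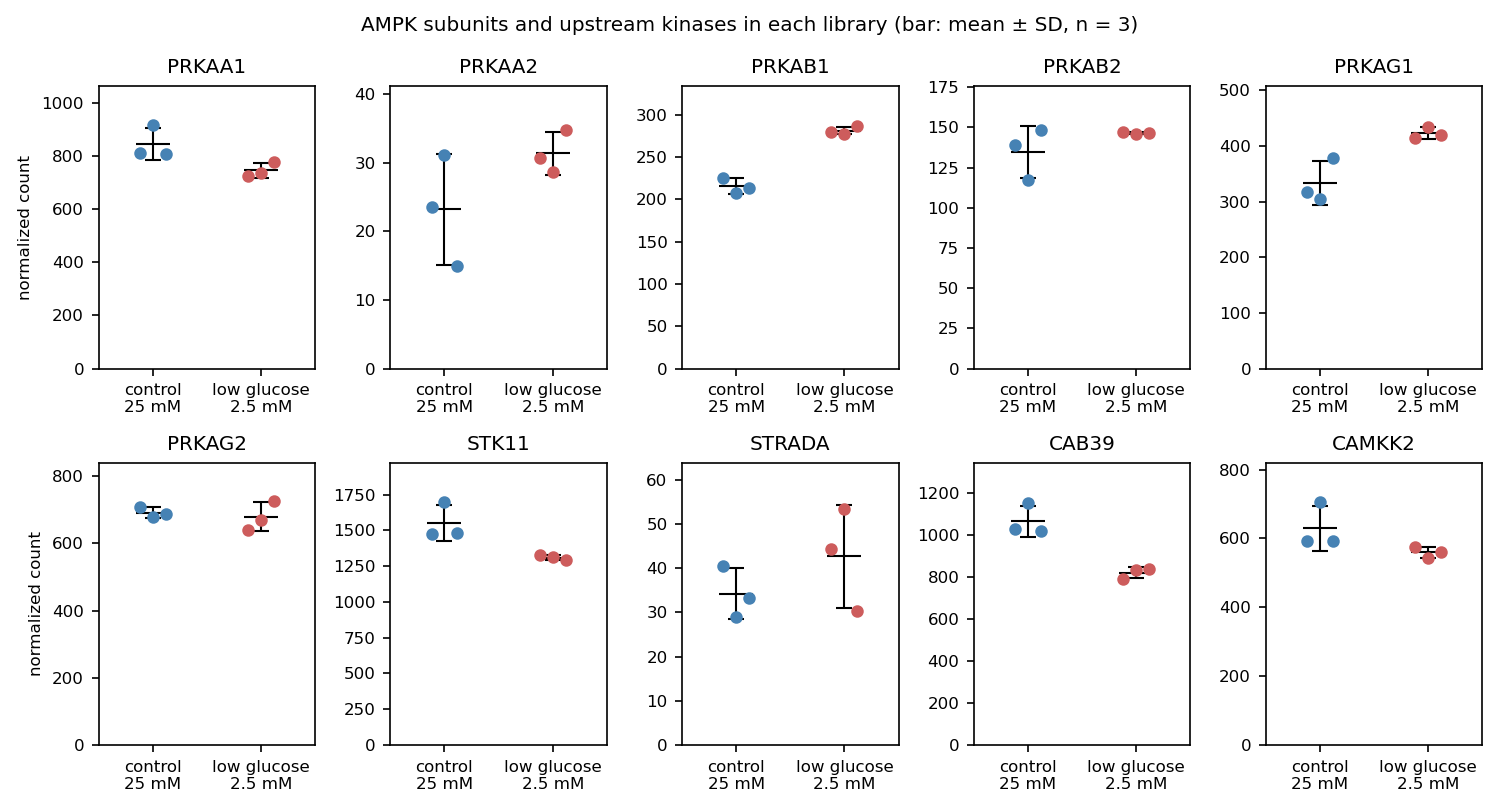
Normalized count (y axis, from 0, scale differing by panel) of each of the 10 genes in control cells at 25 mM glucose (blue) and low glucose at 2.5 mM (red). Points are libraries and bars the mean ± SD of 3. PRKAB1 and PRKAG1 lie wholly above their controls, and PRKAA1, STK11, CAB39 and CAMKK2 wholly below.

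PRKAA1 (ENSG00000132356.11, chr5:40759389-40798374, minus strand) encodes the alpha1 catalytic subunit. It had 810.5, 914 and 808 normalized counts in control libraries and 722, 737 and 777 in low glucose. All low-glucose libraries were below all controls, and the control of 10126218 reads was the highest. The means were 844 ± 60.5 and 745 ± 28.1 (SD, n = 3 each). The log2 fold change was -0.18 ± 0.08 (SE), which missed the threshold (limma, adjusted p = 0.121, 95% interval -0.35 to -0.00022).

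PRKAA2 (ENSG00000162409.11, chr1:56645314-56715335, plus strand), the alpha2 catalytic subunit that prevails in skeletal muscle and heart, was scarce in these cells. Its normalized counts were 23.5, 31.2 and 15.0 in control and 30.8, 28.6 and 34.9 in low glucose. The control of 10126218 reads lay within the low-glucose range, so the conditions overlapped. With 14 to 46 reads a library the log2 fold change of 0.47 had an SE of 0.30 and a 95% interval of -0.16 to 1.11 (limma, adjusted p = 0.25), so a difference was not detectable at this depth.

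PRKAB1 (ENSG00000111725.11, chr12:119667864-119681624, plus strand) encodes the beta1 subunit, which holds alpha and gamma together and carries a carbohydrate-binding module. It had 225, 207 and 214 normalized counts in control and 279.9, 278 and 286 in low glucose. The conditions were well apart, with the lowest low-glucose library above the highest control, and both sets of 3 were tight. The mean rose from 216 ± 9.11 to 281 ± 4.57 (SD, n = 3 each), which is 30.5% higher, at a log2 fold change of 0.38 ± 0.10 (SE; limma, adjusted p = 0.00953). It passed under all 17 alternatives, with a highest adjusted p of 0.0467. A long noncoding RNA on the other strand shares 103 bases of its exons and had 44 to 52 reads.

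PRKAB2 (ENSG00000131791.8, chr1:147155106-147172550, minus strand), the beta2 paralog, had 139, 117 and 149 normalized counts in control and 147, 146 and 146 in low glucose. The low-glucose libraries all fell within the control range. Its log2 fold change was 0.13 ± 0.13 (SE; limma, adjusted p = 0.518, 95% interval -0.16 to 0.41).

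PRKAG1 (ENSG00000181929.13, chr12:49002274-49018807, minus strand) encodes the gamma1 subunit, whose nucleotide-binding sites sense AMP, ADP and ATP. Its normalized counts were 317, 304 and 378 in control and 415, 435 and 420.5 in low glucose. All low-glucose libraries exceeded all controls, although the control of 10190154 reads stood well above the other controls. The mean rose from 333 ± 39.2 to 423 ± 10.3 (SD, n = 3 each), or by 27.1%, with a log2 fold change of 0.35 ± 0.10 (SE; limma, adjusted p = 0.0164). The call was lost without the control library of 9741183 reads (adjusted p = 0.0722), without the low-glucose library of 10841656, 10595408 or 13733477 reads (0.0586, 0.0799 and 0.0638), and with no trend of variance on expression (0.0861). A readthrough gene shares 49.5% of the PRKAG1 exon length on the same strand and has no row in the table, and DDN-AS1 shares 514 bases on the other strand with 34 to 70 reads a library, so the PRKAG1 counts may include reads of either.

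PRKAG2 (ENSG00000106617.14, chr7:151556124-151877214, minus strand), the gamma2 paralog, in which inherited variants cause a cardiac glycogen storage disorder, had 709.6, 678 and 687 normalized counts in control and 641, 671 and 727 in low glucose. The low-glucose libraries spanned the control range on both sides. The log2 fold change was -0.03 ± 0.08 (SE; limma, adjusted p = 0.84, 95% interval -0.20 to 0.15), and its sign turned under 4 other scalings or corrections.

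STK11 (ENSG00000118046.15, chr19:1177558-1228431, plus strand) encodes LKB1, a tumour suppressor kinase. It had 1477.5, 1696 and 1481 normalized counts in control and 1325, 1315 and 1290.4 in low glucose. The low-glucose libraries were tightly grouped below every control, and the control of 10126218 reads was the farthest away. The mean fell from 1552 ± 125 to 1310 ± 17.6 (SD, n = 3 each), at a log2 fold change of -0.24 ± 0.08 (SE; limma, adjusted p = 0.0306). This was the least firm of the 4 calls: it was lost under scaling by library size (log2 fold change -0.16, adjusted p = 0.116), quantile normalization (-0.05, adjusted p = 0.634) and no variance trend (adjusted p = 0.135), without the control of 9741183 reads (0.0525), and without the low-glucose library of 10841656, 10595408 or 13733477 reads (0.0951, 0.104 and 0.113). CBARP, on the other strand, shares 145 bases of exon with STK11 and had 182 to 400 reads.

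STRADA (ENSG00000266173.7, chr17:63682336-63741986, minus strand) encodes the pseudokinase that binds LKB1 and holds it in its active form outside the nucleus. It had 40.4, 29.0 and 33.2 normalized counts in control and 44.2, 53.3 and 30.3 in low glucose. The deepest low-glucose library was the lowest of its condition and lay among the controls. At 26 to 54 reads a library, the log2 fold change of 0.29 ± 0.26 (SE; limma, adjusted p = 0.438, 95% interval -0.26 to 0.84) did not separate the conditions. A readthrough gene on the same strand shares 1970 bases with STRADA, which is 18.1% of the STRADA exon length. The longest STRADA transcript has 3685 bases. The readthrough gene had 0 reads in every library, and how reads on the shared bases were counted is not known. The STRADA counts may therefore miss such reads.

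CAB39 (ENSG00000135932.11, chr2:230712842-230821075, plus strand) encodes MO25-alpha, the scaffold that stabilizes the LKB1 complex. Its normalized counts were 1028, 1154 and 1023 in control and 794, 836 and 839 in low glucose. Every low-glucose library lay well below every control. The mean fell from 1068 ± 74.1 to 823 ± 25.2 (SD, n = 3 each), at a log2 fold change of -0.37 ± 0.08 (SE; limma, adjusted p = 0.00261). It passed under all 17 alternatives, with a highest adjusted p of 0.0467, and without the control of 10126218 reads the log2 fold change was -0.32. A processed pseudogene, CAB39P1, had 0 to 4 reads.

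CAMKK2 (ENSG00000110931.19, chr12:121237675-121298308, minus strand), the calcium- and calmodulin-dependent kinase that acts on AMPK beside LKB1, had 593, 705.5 and 592 normalized counts in control and 574, 543 and 561.5 in low glucose. The low-glucose libraries were all lower, but by little against the controls of 9741183 and 10190154 reads. The log2 fold change was -0.17 ± 0.09 (SE; limma, adjusted p = 0.189, 95% interval -0.36 to 0.03).

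**Figure D2:**
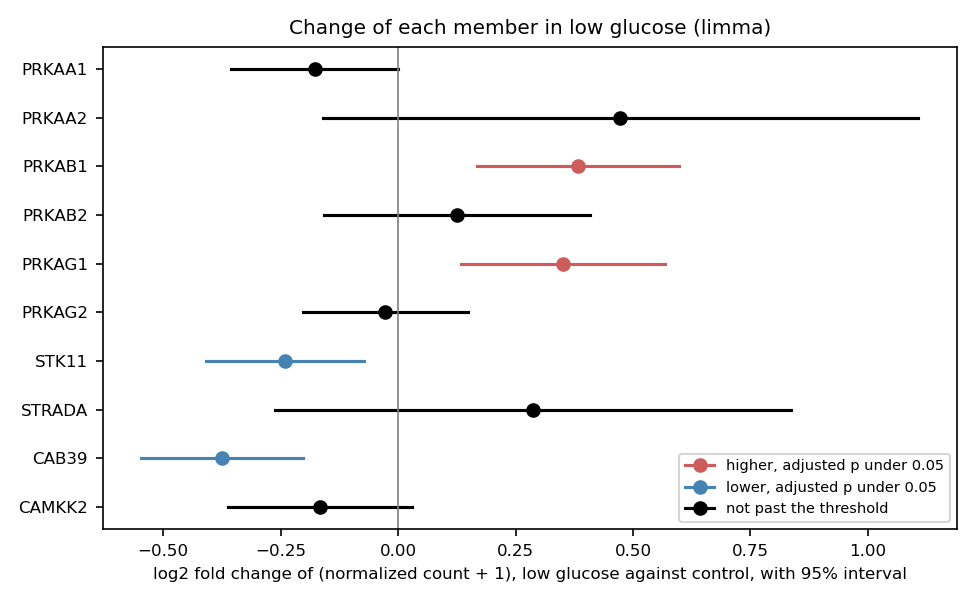
log2 fold change of (normalized count + 1) in low glucose against control (x axis) for each of the 10 genes, with limma's 95% interval. Red points (PRKAB1 at 0.38, PRKAG1 at 0.35) were higher and blue points (STK11 at -0.24, CAB39 at -0.37) lower at an adjusted p under 0.05, and black points did not pass. The intervals of PRKAA2 and STRADA, the genes with the fewest counts, are the widest.

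Levels were compared between genes as normalized counts per kilobase of exon. In control cells the order was CAB39 (199 ± 13.8), STK11 (176 ± 14.2), PRKAA1 (129 ± 9.24), CAMKK2 (87.8 ± 9.11), PRKAG1 (80.0 ± 9.40), PRKAG2 (41.7 ± 0.992), PRKAB1 (35.7 ± 1.51), PRKAB2 (24.7 ± 2.97), STRADA (3.15 ± 0.530) and PRKAA2 (2.48 ± 0.868; SD, n = 3). The libraries of CAB39 and STK11, of CAMKK2 and PRKAG1, and of STRADA and PRKAA2 overlapped, so these neighbours were not ordered beyond their spread. STRADA thus had far fewer counts per kilobase than the other members of its complex. Its counts may miss reads on the bases shared with the readthrough gene, so its level may be understated. In low glucose PRKAG1 (102 ± 2.47) stood above CAMKK2 (78.0 ± 2.17) and PRKAB1 (46.6 ± 0.757) above PRKAG2 (41.0 ± 2.63), without overlap, and CAB39 (153 ± 4.71) and STK11 (149 ± 2.0) still overlapped. The order depends on the length used, since the exons of all annotated transcripts together are much longer than any 1 transcript of PRKAG1, PRKAG2 or STRADA. Per kilobase of the longest transcript, PRKAG1 (198) stood above PRKAA1 (161), and PRKAG2 (136) above CAMKK2 (113) and PRKAB1 (53.6) in control cells. In low glucose PRKAG1 (251) came first and PRKAG2 (134) was again above CAMKK2 and PRKAB1 (70.0). STRADA (9.27 in control) and PRKAA2 (2.48) were the lowest with either length.

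The paralogs of each subunit were then set against each other within a library, and their shares do not depend on scaling between libraries. The log2 ratios were taken after adding 1 to each normalized count, so they can depend on it. Per kilobase, PRKAA2 made up 1.99, 2.34 and 1.28% of alpha transcripts in control and 2.90, 2.65 and 3.05% in low glucose. Nearly all alpha transcripts therefore came from PRKAA1 in both conditions, and the low-glucose shares were all above the controls. PRKAB2 made up 40.6, 38.4 and 43.5% of beta transcripts in control and 36.8, 36.8 and 36.1% in low glucose, where every share was lower. PRKAG2 made up 36.0, 35.9 and 31.4% of gamma transcripts in control and 28.0, 27.9 and 30.3% in low glucose, again lower in every library.

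The log2 ratio of PRKAA2 to PRKAA1 was 0.65 higher in low glucose than in control. That of PRKAB2 to PRKAB1 was -0.26 and that of PRKAG2 to PRKAG1 -0.38 on the same scale. For each of the 3 ratios the two-sided exact permutation p was 0.1 (0.1 after adjustment over the 3), the smallest that 3 libraries against 3 allow, so none could pass 0.05. Without the control of 10190154 reads the alpha difference was 0.41, and it rests on 14 to 46 PRKAA2 reads. With 0.1 added to each normalized count in place of 1, the alpha difference was 0.67, the beta difference -0.26 and the gamma difference -0.38. The shares also depend on the length used: with the longest transcript in place of all exons, PRKAB2 was 31.9% of beta in control and 28.2% in low glucose, and PRKAG2 40.8% and 34.7% of gamma.

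Summed over both paralogs, alpha transcripts were 131 ± 9.99 normalized counts per kilobase in control and 117 ± 4.57 in low glucose (SD, n = 3). The beta sum was 60.4 ± 4.02 and 73.4 ± 0.740, and the gamma sum 122 ± 9.38 and 143 ± 3.82. The beta and gamma sums of the low-glucose libraries lay above those of all controls, and the alpha sums below them. With the longest transcript the gamma sum was 334 and 385, the beta sum 78.9 and 97.4, and the alpha sum 163 and 145. These sums follow from the counts of the single genes and were not tested again.

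**Figure D3:**
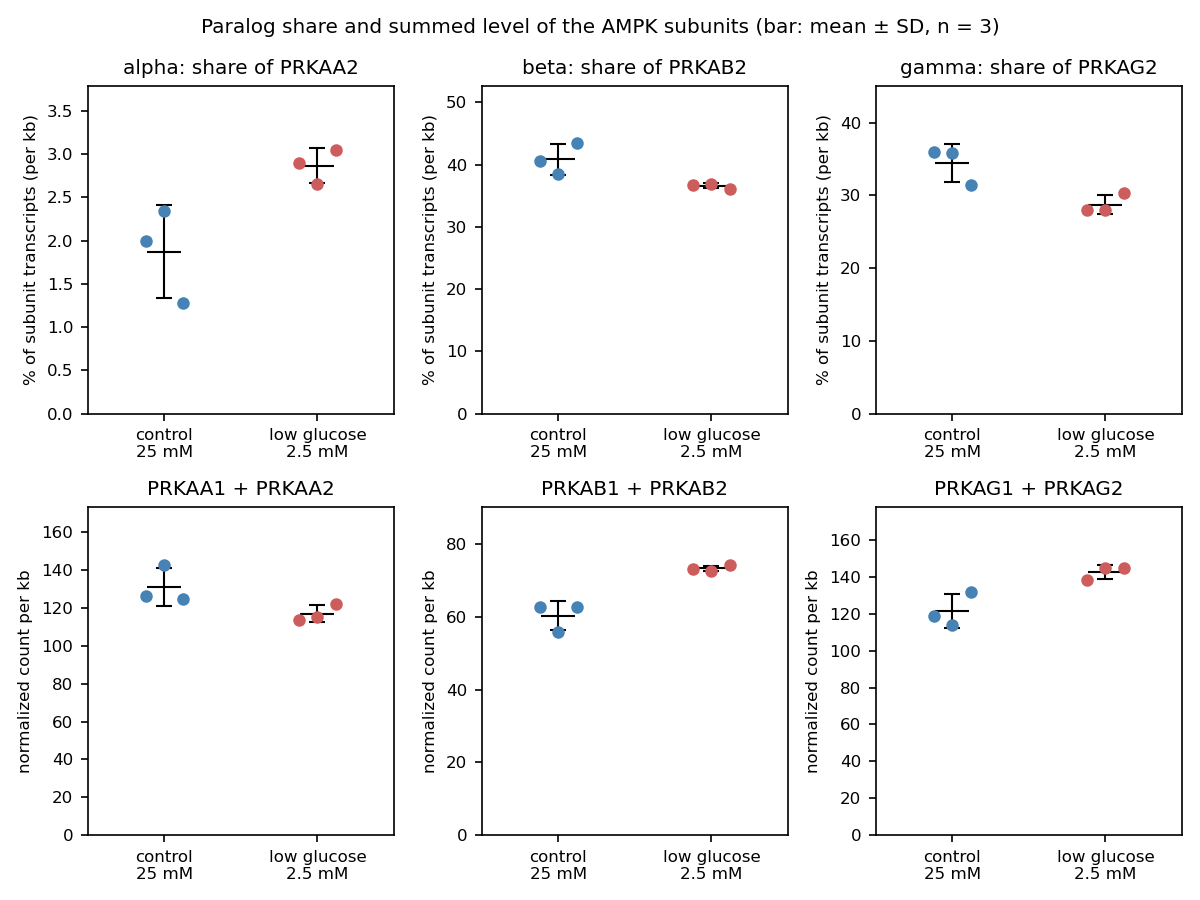
Upper panels show the share of PRKAA2 among alpha, PRKAB2 among beta and PRKAG2 among gamma transcripts (% of normalized counts per kilobase), and lower panels the summed level of each subunit (normalized count per kilobase). Points are libraries (blue control, red low glucose) and bars the mean ± SD of 3. The PRKAA2 share is 1.28 to 3.05% throughout, and the PRKAB2 and PRKAG2 shares are lower in each low-glucose library than in any control.

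The remaining subunit and activator genes gave 1 call. Of 5 genes, 4 were tested, 1 rose and none fell, beside 30.9% of all genes called, with a median log2 fold change of -0.05. STRADB, the paralog of STRADA, had 323, 276 and 328 normalized counts in control and 404, 419.8 and 443 in low glucose. It was higher in every low-glucose library and rose by 0.45 ± 0.10 (SE) on the log2 scale (limma, adjusted p = 0.00315), although 144 bases of its exons are shared with TRAK2 on the other strand. Per kilobase the STRADB counts were also well above those of STRADA, with STRADB at 97.3 ± 8.99 in control and 133 ± 6.21 in low glucose (SD, n = 3). The STRADA counts may miss reads on the bases shared with its readthrough gene. The MO25 paralog CAB39L (log2 fold change -0.00, adjusted p = 0.989), CAMKK1 (-0.10, adjusted p = 0.636) and the alternative upstream kinase MAP3K7, or TAK1 (-0.20, adjusted p = 0.0786), did not pass, and MAP3K7 passed without the control of 10190154 reads (adjusted p = 0.0227). PRKAG3, the muscle gamma3 subunit, had 0 reads in every library.

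LKB1 also activates a family of AMPK-related kinases. Of 12 such genes, 11 were tested, 2 rose and 2 fell, with a median log2 fold change of -0.06. This is 36.4% called, beside 30.9% of all genes. BRSK1, best known in neuronal polarity, had 40.4, 21.2 and 25.7 normalized counts in control and 55.8, 59.3 and 47.7 in low glucose and rose by 0.92 (limma, adjusted p = 0.0136). The microtubule-affinity regulating kinases moved in both directions: MARK4 rose by 0.39 (adjusted p = 0.00852), while MARK2 changed by -0.54 (0.00453) and MARK3 by -0.25 (0.0202). The 3 SIK, 2 NUAK, BRSK2 and SNRK genes did not pass.

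Among 17 genes for proteins that AMPK phosphorylates, 3 rose and 5 fell, and the median log2 fold change was -0.20. This is 47.1% called, beside 30.9% of all genes (14.7% higher and 16.2% lower). The RNA of a target is not a readout of its phosphorylation. TXNIP, an arrestin that limits glucose uptake and whose gene is induced by glucose, had 1164, 1086 and 1138 normalized counts in control and 534, 528 and 493 in low glucose. It fell by 1.12 on the log2 scale (limma, adjusted p = 2.38e-07). The lipogenic transcription factor SREBF1 fell by 0.52 (adjusted p = 0.000125), and ACACA, the acetyl-CoA carboxylase that starts fatty acid synthesis, by 0.39 (adjusted p = 0.00948). The genes with the largest rises were the transcription factor FOXO3 (0.61, adjusted p = 0.000361), the glycolytic regulator PFKFB2 (0.53, adjusted p = 0.00593) and the autophagy kinase ULK1 (0.36, adjusted p = 0.0153).

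Of 7 genes whose products restrain AMPK, 2 rose and 1 fell, with a median log2 fold change of -0.06. This is 42.9% called, beside 30.9% of all genes. Folliculin, FLCN, rose by 0.32 (limma, adjusted p = 0.0213) and its partner FNIP1 by 0.30 (adjusted p = 0.0148). The phosphatase catalytic subunit PPP2CA had 2356, 2435 and 2432 normalized counts in control and 1511, 1618 and 1696 in low glucose, and fell by 0.58 (adjusted p = 4.03e-05). In the lysosomal glucose-sensing complex, 9 genes with 8 tested, limma called 0. None of the 8 reached an unadjusted p of 0.05, which 8675 of the 21101 genes did. edgeR (6554 of 15322 genes called) and DESeq2 (5486 of 17421) also called 0 in this list. The median log2 fold change was 0.09. The controls were far apart for LAMTOR5 (583, 362 and 812 normalized counts), LAMTOR2 (371, 307 and 484) and LAMTOR4 (418, 346 and 530). Changes of these genes could therefore be missed. ALDOA in this list shares 42.8% of its exon length with a readthrough gene on the same strand, which makes its counts uncertain. A long noncoding RNA on the other strand shares 520 bases of ALDOA exon. It had 941 to 1378 reads a library, against 89 to 108 for ALDOA. PPP2CA and FLCN share 26.1% and 11.9% of their exon length with genes on the same strand that had 0 to 8 and 0 to 7 reads. Their counts may miss reads on the shared bases. Reads on the other strand could likewise enter SREBF1 and PFKFB2, whose exons share 556 and 315 bases with RAI1 and YOD1. The same holds for PPP2CA (93 bases, MIR3661, 554 to 963 reads), LAMTOR4 (356 bases, TRAPPC14) and LAMTOR5 (418 bases, LAMTOR5-AS1). The strand setting used for counting is not given in the sources used here.

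Several of these calls were lost when a single library was left out. BRSK1 was lost without the low-glucose library of 10841656 or 10595408 reads, and FNIP1 without that of 10595408 or 13733477. MARK3 was lost without any 1 of the 3 low-glucose libraries. MARK4, ULK1 and FLCN were lost without the control of 9741183 reads and without 2 of the low-glucose libraries each (10841656 and 13733477 for MARK4, 10841656 and 10595408 for ULK1, 10595408 and 13733477 for FLCN). ACACA was lost when either the 9741183-read control or the deepest low-glucose library was omitted. The adjusted p in these fits was 0.0511 to 0.1095. STRADB, MARK2, TXNIP, SREBF1, FOXO3, PFKFB2 and PPP2CA passed in all 6 such fits. With no variance trend BRSK1, MARK4, MARK2, MARK3, ULK1, ACACA, FLCN and FNIP1 did not pass (adjusted p = 0.0584 to 0.115). MARK3 was also lost under library size scaling (-0.17, adjusted p = 0.0945) and quantile normalization (-0.10, adjusted p = 0.346), and ACACA under quantile normalization (-0.20, adjusted p = 0.11).

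**Figure D4:**
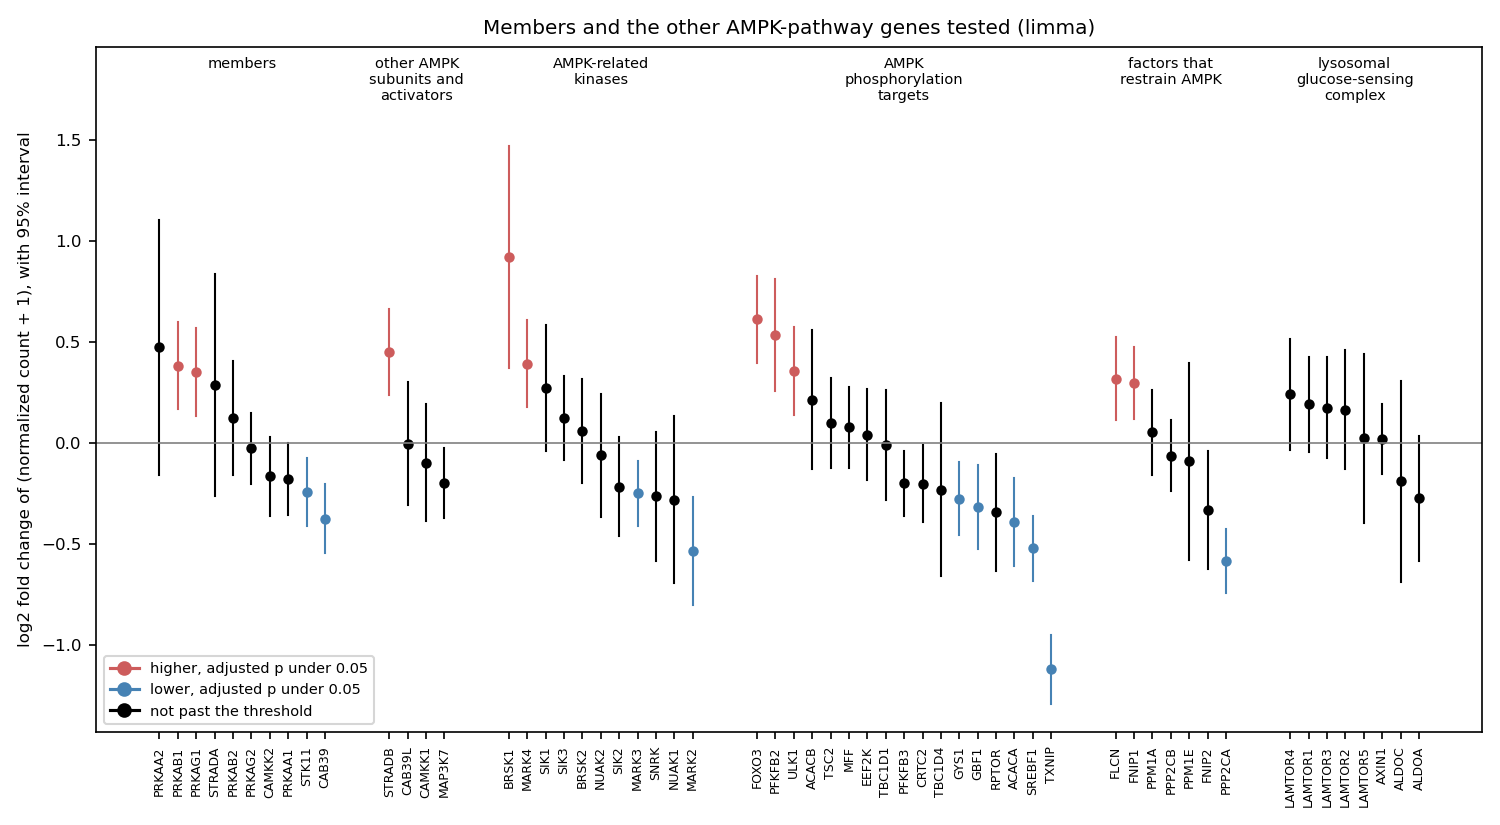
log2 fold change of (normalized count + 1) with limma's 95% interval (y axis) for the 10 genes and for the tested genes of 5 further AMPK-pathway lists (x axis, ordered by change within each list). Red and blue mark genes higher and lower at an adjusted p under 0.05. Calls run in both directions in the 10 genes, the related kinases, the targets and the restraining factors, and none is made in the lysosomal list.

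Promoters of 9 of the 10 genes, in 14 windows of 250 bases before a RefSeq start site on GRCh38.p14, were searched on both strands for TGATGNAAN, bound by ATF4 with C/EBP factors, for the cyclic AMP response element TGACGTCA and for the E-box CACGTG. None of these letters occurred in the 14 windows, beside 3.13%, 1.65% and 6.34% of 35116 such windows of all genes, which says nothing about binding elsewhere.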

How the data were processed

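RNA-seq libraries were strand-specific and paired-end. Per the submitters' processing notes, reads were trimmed with Trim Galore, checked with FastQC, aligned to hg38 with STAR 2.7.0e and compared with DESeq2. RSEM is among the software listed for the RNA-seq, without its use being described. Which tool made these counts, its strand setting and the annotation are not given in the sources used here. In the deposited table each value is a signal, the gene's count after the authors divided it by a library's size factor. Divided by the value of 1 read, 100% of values in every library came out whole within 0.01, and size factors recomputed from 17906 genes by the median of ratios gave the same scaling. Of the identifiers, 99.4% matched Gencode v44, from which exon lengths were taken. Sample descriptions identify the columns for replicates 1 and 2 of low glucose. The other 4 columns were placed by condition from their names and the stated grouping of columns, and carry no replicate number.

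The values were tested as log2(value + 1) with limma 3.58.1 in R 4.3.3 (lmFit and eBayes with trend, two-sided, Benjamini-Hochberg adjustment over all 21101 genes with a mean of at least 1, threshold 0.05). A fold change on this scale understates the change of scarce genes. Paralog ratios were compared by exact permutation over libraries. edgeR 4.0.16 and DESeq2 1.42.0 were run on the recovered reads as alternatives, and the scripts were tested on simulated data. The members and gene lists were chosen with earlier results of these data known. Named genes were all 10 members, every further subunit or activator gene, and from each other list up to 3 genes with the highest and 3 with the lowest fold change out of those called that averaged at least 10 normalized counts. An item of the lists is not reported here. The corrections for trends with transcript length and GC content were chosen after seeing the data. Depth was 9741183 to 13733477 reads a library, and counts of reads cover counting error only.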

Additional observations from a re-analysis of the deposited data

How the results depend on the processing

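Of the 10 genes, PRKAB1 and CAB39 kept their direction and stayed past the threshold under all 17 alternatives (11 with all libraries, 6 with 1 library left out), whereas PRKAG1 passed in 12 and STK11 in 10. The count of the 10 past the threshold was 4. It was 3 under library size scaling, 3 under quantile normalization and 2 with no variance trend. With each library left out it was 2 to 4. The count over all 21101 genes tested was 6528. It was 6578 under library size scaling, 6025 under quantile normalization and 4090 with no variance trend. With each library left out it was 4298 to 7173, lowest when low-glucose replicate 1 (10841656 reads) was omitted, highest when the control of 10126218 reads was. Scaling by library size gave 3932 genes higher and 2646 lower, against 3111 and 3417. The sign of PRKAG2 turned under library size scaling (0.0537), quantile normalization (0.0751), and removal of a trend with length (0.0111) or GC content (0.0069), and its log2 fold change was -0.0765 to 0.0143 with each library left out. That of CAB39L turned under library size scaling (0.0767), TMM scaling (0.0083), edgeR (0.0075), and removal of a trend with length (0.0165) or GC content (0.0302), and was -0.0812 to 0.127 with each library left out. The cause was not tested. The differences of the paralog log2 ratios kept their sign with each library left out (0.41 to 0.83 for alpha, -0.33 to -0.18 for beta, -0.48 to -0.33 for gamma). With the longest transcript as length, PRKAA2 was 1.51% of alpha in control and 2.31% in low glucose, and the PRKAB2 and PRKAG2 shares moved as given above. No paired analysis was possible because the control columns carry no replicate number to match with low glucose. Depth limits PRKAA2 and STRADA, and 3 libraries a condition limit every test.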
